A study of Mus musculus with 16 samples.

Results

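The 10 genes described here encode the store-operated calcium channels Orai1, Orai2 and Orai3, their sensors Stim1 and Stim2, the inositol trisphosphate receptor Itpr2, the cation channels Trpm4 and Trpv2, and the potassium channels Kcnn4 and Kcnj2. They are 10 of the 39179 genes counted in the series. The genes were grouped by their known roles with earlier results of these data known, so counts of members called are not free of that choice. Kcnj2 in particular was chosen by its large fall with antigen in these same samples, so its antigen values are a description and carry no test. The question put to them was how their transcripts differed with antigen, with dexamethasone and between the genotypes.

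RNA was sequenced from 16 samples of bone marrow derived mast cells (BMMCs), 2 for each of 8 conditions. BMMCs are mast cells obtained by culture of bone marrow, here from male C57BL/6 mice aged 8 to 10 weeks, kept for 4 weeks with stem cell factor and IL3. PEP+/+ cells came from wild-type mice, and PEP-/- cells from mice with a mutation of PEP, a tyrosine phosphatase encoded by Ptpn22. The PEP-/- mice are described as null with no cell type restriction stated, and the nature of the allele is not given. The study calls its replicates biological, but neither the labels nor the methods say how many mice or cultures they came from, so p-values measure the spread between these samples, part of which may be technical. All samples received IgE at 0.05 µg/ml for 3 h according to the labels, while the methods of the study give another IgE dose. The IgE DNP samples also received the antigen DNP, coupled to albumin, at 200 ng/ml for 1 h. The IgE DEX samples received the glucocorticoid dexamethasone (DEX) at 1e-07 M for 8 h besides IgE, and the IgE DNP DEX samples received all 3 agents. No sample was left without IgE.

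In a mast cell, antigen that cross-links receptor-bound IgE leads to the production of inositol trisphosphate, whose receptors release calcium from the endoplasmic reticulum. Stim proteins in that membrane sense the emptied store and open Orai channels in the plasma membrane, and the calcium that enters is needed for degranulation and cytokine production. Potassium channels hold the membrane potential negative and so keep up the driving force for calcium, whereas Trpm4 passes monovalent cations and depolarizes the membrane when calcium rises. DEX acts through the glucocorticoid receptor, a transcription factor.

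The promoters of 4 of the genes are shown, those with the largest differences below: Orai1 and Kcnn4 with antigen, Kcnj2 as the gene chosen by its fall, and Trpv2 with DEX. Each sequence is taken from RefSeq on GRCm38.p6 and spans 250 bases before to 50 bases after an annotated transcript start, 300 bases in all. All 4 lie on the plus strand, at chr5:123014824-123015123 for Orai1, chr7:24370013-24370312 for Kcnn4, chr11:111065914-111066213 for Kcnj2 and chr11:62575377-62575676 for one of the 3 annotated Trpv2 starts. Capitals mark a match to one of the motifs searched, and the Trpv2 window shown is the 1 of the 3 that held a match.
Orai1: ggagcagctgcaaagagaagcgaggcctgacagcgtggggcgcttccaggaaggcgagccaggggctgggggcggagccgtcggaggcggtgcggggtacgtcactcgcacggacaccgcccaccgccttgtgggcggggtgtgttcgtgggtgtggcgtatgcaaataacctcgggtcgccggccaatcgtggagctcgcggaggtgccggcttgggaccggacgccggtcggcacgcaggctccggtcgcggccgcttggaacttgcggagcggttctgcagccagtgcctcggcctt
Kcnn4: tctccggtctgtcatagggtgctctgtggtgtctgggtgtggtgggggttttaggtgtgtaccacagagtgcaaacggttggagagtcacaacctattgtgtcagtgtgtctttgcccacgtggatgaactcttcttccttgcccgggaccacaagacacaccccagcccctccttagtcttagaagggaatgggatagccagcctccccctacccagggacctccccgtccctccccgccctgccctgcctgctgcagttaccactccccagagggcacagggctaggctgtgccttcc
Kcnj2: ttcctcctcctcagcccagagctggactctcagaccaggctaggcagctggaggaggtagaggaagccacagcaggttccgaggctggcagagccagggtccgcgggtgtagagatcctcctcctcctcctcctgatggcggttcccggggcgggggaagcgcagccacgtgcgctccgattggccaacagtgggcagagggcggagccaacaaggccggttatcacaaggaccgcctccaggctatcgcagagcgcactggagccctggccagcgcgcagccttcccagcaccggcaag
Trpv2: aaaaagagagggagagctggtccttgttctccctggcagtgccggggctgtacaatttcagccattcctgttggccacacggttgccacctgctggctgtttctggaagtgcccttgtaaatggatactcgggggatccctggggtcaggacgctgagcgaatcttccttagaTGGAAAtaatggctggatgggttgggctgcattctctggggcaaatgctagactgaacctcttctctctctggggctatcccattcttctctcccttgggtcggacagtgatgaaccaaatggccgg

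A promoter was at hand for 9 of the 10 genes, Trpm4 being the one without, and with 3 starts for Trpv2 this gave 11 windows. The Orai1 window has a GC content of 70.33% and 36 CpG dinucleotides, the Kcnj2 window 66.67% and 18. The Kcnn4 window has 59.67% and 6, and the Trpv2 window printed above 54.33% and 7, against a median GC content of 52.67% over 32851 promoters. The windows of Stim1 and Stim2 were the richest in GC among the members, at 78.67% and 76.67%. On both strands, the cAMP response element TGACGTCA, the AP-1 site TGANTCA and the palindromic glucocorticoid response element were each found in 0 of the 11 windows. Of all promoters, 1.79% hold the first, 7.808% the second and 0.009132% the third. TGGAAA, the core of NFAT sites, was found in 1 window, on the plus strand of the Trpv2 sequence above, and is present in 21.43% of all promoters. The Trpv2 window at the first annotated start, chr11:62574236-62574535, held 0 matches. It has a GC content of 53% and 2 CpG dinucleotides. A match is only a match of letters, and its absence covers these windows alone.

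The number of reads on genes ranged from 8612531 to 22143526 over the samples, with a median of 12814043.5. Ptpn22, the targeted gene, had 130 to 2799 reads in the PEP+/+ samples and 0 to 55 in the PEP-/- samples, without overlap, as the labels state. All 10 genes of a mast cell marker list were expressed, with a summed level of 6.8e+04 to 1.071e+05 CPM (read counts normalised for library size by TMM). The summed levels of other lists were at most 8.512 CPM for macrophages (C1qa at 0), 2.351 CPM for neutrophils, 122.1 CPM for basophils, 0.1302 CPM for T cells (Cd3e and Cd3g at 0), 2.475 CPM for dendritic cells and 6.119 CPM for erythroid cells. The megakaryocyte list reached 3919 CPM, nearly all of it Itga2b, with Pf4 at most 0.1891 CPM. In bulk RNA, fewer cells of a type and less RNA per cell cannot be told apart. The labels number 1 sample of each condition and give a letter to the other, called here the numbered and the lettered set. The mean log2 difference of lettered minus numbered samples was 1.01 for Trpm4, 0.75 for Kcnn4, 0.67 for Kcnj2 and -0.84 for Stim1, and between -0.15 and 0.18 for the other 6 genes.

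Antigen without DEX raised 4 and lowered 2 of the 9 tested genes. Orai1, Stim2, Kcnn4 and Trpv2 were higher, and Orai2 and Orai3 lower, in all 4 IgE DNP samples than in any of the 4 IgE samples. Calls here are edgeR quasi-likelihood tests with an adjusted p under 0.05, on log2 differences averaged over both genotypes. They leave out the pairing of the samples by numbered and lettered set. Results with the set fitted as a block are given beside them. Of all 13305 genes tested, 16.7% were called, and 22.2% had samples that did not overlap, against 6 of 9 members on either count. The median log2 difference was 0.70 over the 9 and -0.00 over all genes. In the presence of DEX, antigen raised the same 4 genes and lowered 0 of 9, with 12.6% of all genes called, and 5 of 9 had samples that did not overlap, against 19.4% of all genes. The median log2 differences were 0.49 and -0.02. The macrophage list moved with antigen, from 2.342 to 5.736 CPM summed after IgE to 5.851 to 8.512 CPM after IgE DNP, while with DEX it overlapped, at 2.565 to 6.971 CPM after IgE DEX and 4.123 to 7.195 CPM after IgE DNP DEX. The share of reads aligned to several places, which are in no gene, was 21.5 to 25.6% after IgE and 24.0 to 31.5% after IgE DNP, and 25.1 to 27.7% after IgE DEX and 30.3 to 37.8% after IgE DNP DEX, the highest in PEP-/- IgE DNP DEX replicate 2. The part of the macrophage list and of this share in the antigen values was not tested.

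In the fit that leaves out the pairing by set, DEX without antigen raised 1 and lowered 1 of the 9 tested genes, Trpv2 and Orai2. Of all genes, 9.37% were called. The samples of 5 of the 9 did not overlap, against 15.6% of all genes. DEX in the presence of antigen raised Trpv2 and lowered Orai1, against 10.7% of all genes called, and again 5 of 9 had samples that did not overlap, against 16.6% of all genes. The median log2 differences were -0.10 and -0.32, and those over all genes 0.00 and -0.01. The erythroid list went from 0.09105 to 0.72 CPM after IgE to 0.4068 to 4.951 CPM after IgE DEX, and from 0.05503 to 0.4102 CPM after IgE DNP to 1.903 to 6.119 CPM after IgE DNP DEX without overlap, and its part was not tested. When the set was fitted as a block, 7, 8, 5 and 5 of the 9 genes were called in these 4 comparisons in the order given, against 37.9%, 37.6%, 26.7% and 33.3% of all genes.

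**Figure D1:**
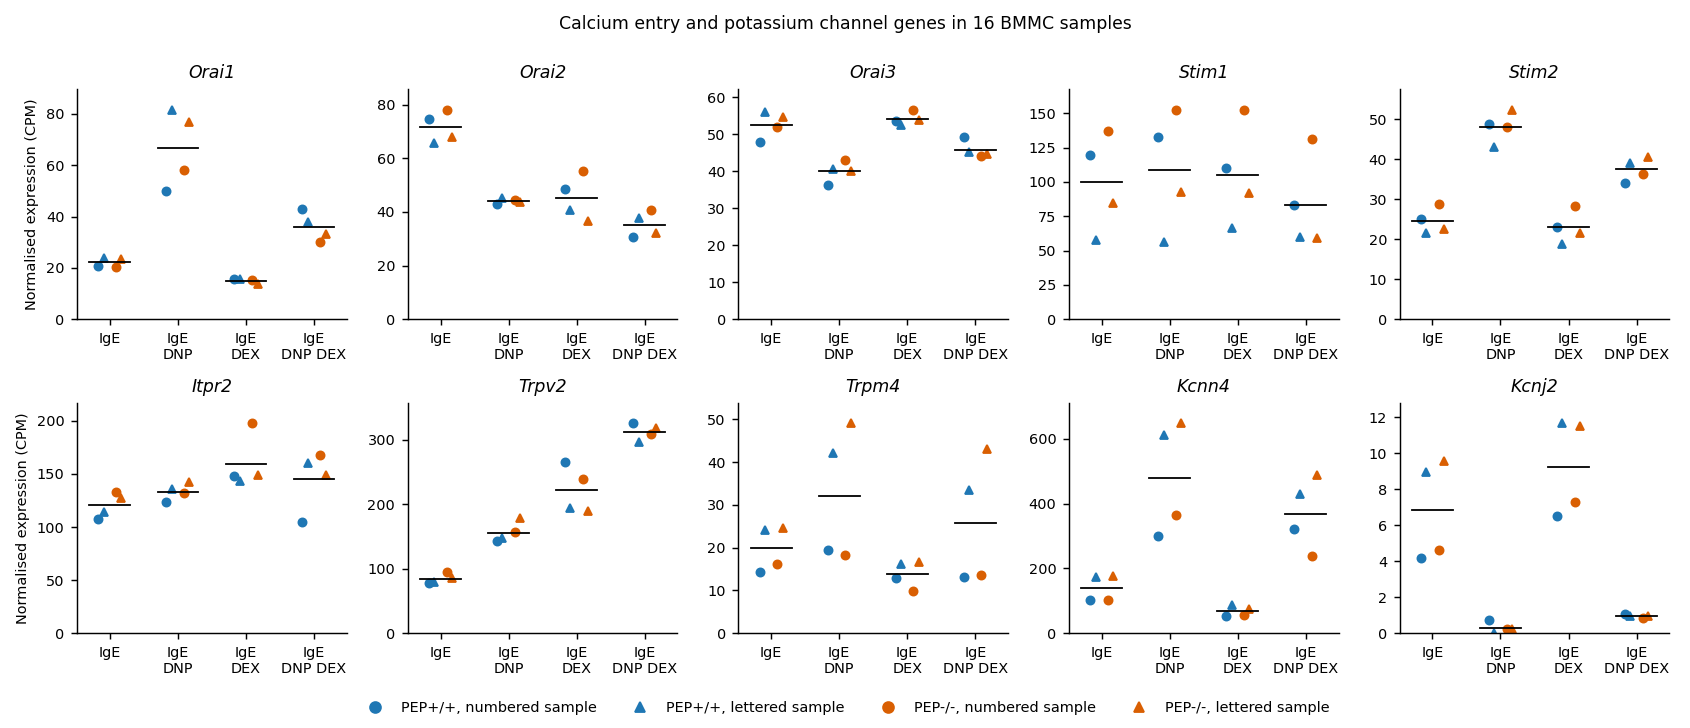
Each panel plots 1 of the 10 genes, with the level in CPM on a linear axis from 0 over the 4 treatments, and each point is 1 sample, with colour for genotype, shape for the numbered or lettered set and a line at the mean (n = 4). Orai1 and Kcnn4 rise with antigen in every pair of points, Kcnj2 falls to between 0 and 1.042 CPM in all 8 samples with antigen, and Trpv2 is at 189.6 CPM or more in all 8 samples with DEX, while the lettered samples lie below the numbered ones for Stim1 and above them for Trpm4 in every condition.

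Orai1 (ENSMUSG00000049686, chr5:123015074-123030456, plus strand of GRCm38) encodes the pore of the classical calcium release-activated channel. After IgE its level was 20.79 and 23.94 CPM in the PEP+/+ samples and 20.49 and 23.61 CPM in the PEP-/- samples, numbered sample first. After IgE DNP it was 49.84 and 81.69 CPM in PEP+/+ and 58.09 and 76.88 CPM in PEP-/-. Every sample with antigen lay above every sample without it.
After IgE DEX the levels were 15.57, 15.65, 15.25 and 13.83 CPM in the same order, and after IgE DNP DEX 42.83, 37.92, 30.26 and 33.02 CPM. The 4 IgE DEX samples were thus the lowest of all 16, and the IgE DNP DEX samples lay between the IgE and the IgE DNP samples. On the log2 scale antigen raised Orai1 by 1.58 (SE 0.17; edgeR, adjusted p = 8.32e-05), which is 3.00-fold, without DEX, and by 1.24 (SE 0.17; edgeR, adjusted p = 0.000722) with DEX. DEX lowered it after antigen (log2 difference -0.90, SE 0.17; edgeR, adjusted p = 0.00568). Without antigen the log2 difference with DEX was -0.56 (SE 0.17) with an adjusted p of 0.0657 in edgeR, which became 0.0072 with the set as a block and 0.0319 in DESeq2. The rise with antigen was 1.56 in PEP+/+ and 1.61 in PEP-/- cells. Of its exon bases, 7 overlap the antisense gene Gm2479.

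Orai2 (ENSMUSG00000039747, chr5:136147459-136170713, minus strand) encodes a second Orai pore subunit that can join Orai1 in mixed channels. Its levels after IgE were 74.49 and 65.75 CPM in PEP+/+ and 78.12 and 67.94 CPM in PEP-/-, and after IgE DNP 42.84, 45.12, 44.38 and 43.81 CPM. After IgE DEX they were 48.54, 40.54, 55.12 and 36.72 CPM, and after IgE DNP DEX 30.46, 37.54, 40.59 and 32.26 CPM. The IgE samples were the highest, and all samples with either agent alone lay below them. Antigen without DEX lowered Orai2 (log2 difference -0.70, SE 0.16; edgeR, adjusted p = 0.00988), and so did DEX without antigen (-0.66, SE 0.16; edgeR, adjusted p = 0.0204). The second call was lost when PEP+/+ IgE replicate 1, PEP-/- IgE replicate 1, PEP+/+ IgE DEX replicate 2 or PEP-/- IgE DEX replicate 2 was left out, with edgeR adjusted p between 0.0824 and 0.0978. With both agents the differences were smaller, -0.36 (SE 0.16) for antigen in the presence of DEX (edgeR, adjusted p = 0.167, and 0.0353 with the block) and -0.32 (SE 0.16) for DEX in the presence of antigen (edgeR, adjusted p = 0.242).

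Orai3 (ENSMUSG00000043964, chr7:127769815-127775150, plus strand), the third pore subunit, had the smallest antigen differences of the Orai genes. Its levels were 47.82, 55.86, 51.90 and 54.72 CPM after IgE and 36.32, 40.62, 42.91 and 39.95 CPM after IgE DNP, so the groups did not overlap. They were 53.62, 52.57, 56.63 and 53.80 CPM after IgE DEX and 49.34, 45.04, 44.03 and 44.72 CPM after IgE DNP DEX. Antigen without DEX lowered it by a log2 difference of -0.40 (SE 0.11; edgeR, adjusted p = 0.0278). This call was lost without any 1 of 6 of the 8 samples compared, PEP+/+ IgE replicate 1 and PEP+/+ IgE DNP replicate 2 being the exceptions, with edgeR adjusted p from 0.0526 to 0.111. In the presence of DEX the difference was -0.24 (SE 0.11; edgeR, adjusted p = 0.18, and 0.0407 with the block). The DEX differences were 0.04 without and 0.20 with antigen, both with an SE of 0.11.

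The make-up of the Orai transcripts was described by the share of each gene. Levels were put on the scale of CPM per kilobase of exon (RPKM), with all annotated exons of a gene joined. Comparisons between genes and the shares depend on that annotation, since the transcripts in use may be shorter. On this scale Orai3 was the most abundant after IgE with a mean of 24.56, against 11.78 for Orai2 and 9.676 for Orai1 (n = 4). After IgE DNP Orai1 had the highest mean, 29.03 RPKM, against 18.66 for Orai3 and 7.247 for Orai2. Orai1 made up 21.01% of the summed Orai RPKM after IgE (19.4 to 22.03%, n = 4) and 52.35% after IgE DNP (47.49 to 57.42%). After IgE DEX its share was 16.73% (15.76 to 17.92%) and after IgE DNP DEX 36.45% (32.62 to 39.95%). The 4 ranges do not overlap. Each of the 4 comparisons of this share gave p = 0.02857 in a two-sided exact permutation test over samples, the smallest that 4 against 4 samples allow, and 0.08571 after adjustment over the 12 share tests made. The summed Orai RPKM ranged from 43.65 to 47.34 after IgE and from 45.73 to 61.99 after IgE DNP, so these totals overlapped.

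**Figure D2:**
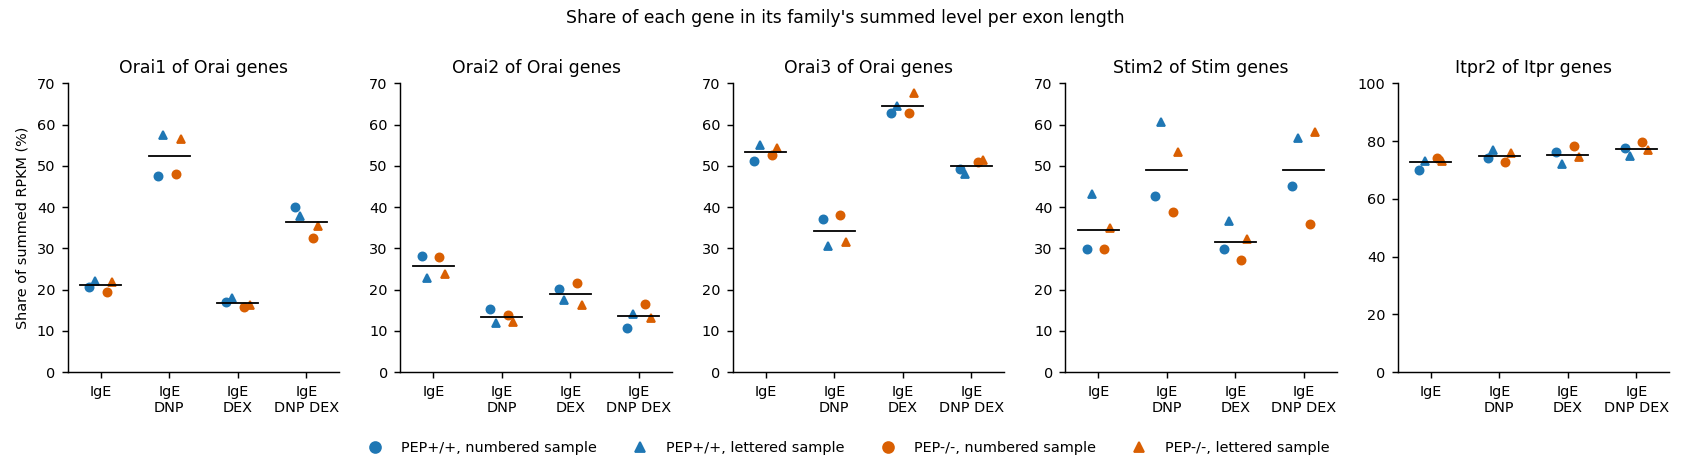
The share of Orai1, Orai2, Orai3, Stim2 and Itpr2 in the summed RPKM of their family, in percent, is plotted for the 4 treatments, with 1 point per sample, coloured by genotype and shaped by set, and a line at the mean (n = 4). Orai1 goes from a mean of 21.01% after IgE to 52.35% after IgE DNP while Orai3 goes from 53.33% to 34.3%, and Itpr2 stays the main inositol trisphosphate receptor at 72.64 to 77.28%.

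Stim1 (ENSMUSG00000030987, chr7:102267806-102437319, plus strand) encodes the main calcium sensor of the store. Its levels after IgE were 119.3 and 57.77 CPM in PEP+/+ and 137.0 and 85.01 CPM in PEP-/-, after IgE DNP 132.4, 56.59, 152.4 and 92.90 CPM, after IgE DEX 109.8, 66.20, 152.7 and 92.14 CPM, and after IgE DNP DEX 83.32, 59.91, 131.2 and 59.00 CPM. The lettered sample was the lower of its condition in 8 of 8 conditions, and the mean log2 difference of lettered minus numbered samples was -0.84. Its part in the treatment values was not tested beyond the block. Antigen differences were 0.12 (SE 0.38) without and -0.33 (SE 0.38) with DEX, and DEX differences 0.07 and -0.38, none called, with edgeR adjusted p from 0.626 to 0.97. With the block, the differences of -0.34 for antigen with DEX and -0.36 for DEX with antigen passed (edgeR, adjusted p = 0.036 and 0.0299). The 95% interval for antigen without DEX ran from -0.71 to 0.95 on the log2 scale in the fit without the block. With the block that difference was 0.11 with an SE of 0.12, not called (edgeR, adjusted p = 0.519).

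Stim2 (ENSMUSG00000039156, chr5:53998499-54121057, plus strand) encodes the sensor that responds to small losses from the store. Its levels after IgE were 25.12, 21.68, 28.95 and 22.47 CPM, and after IgE DNP 48.89, 43.09, 48.08 and 52.45 CPM. After IgE DEX they were 23.06, 18.88, 28.21 and 21.66 CPM, and after IgE DNP DEX 33.98, 38.98, 36.36 and 40.63 CPM. All 8 samples with antigen lay above all 8 without. Antigen raised Stim2 by 0.97 (SE 0.15) on the log2 scale without DEX and by 0.71 (SE 0.15) with DEX (edgeR, adjusted p = 0.000902 and 0.00853). Without PEP+/+ IgE DEX replicate 2 the second value was 0.64 with an adjusted p of 0.0509 in edgeR. DEX differences were -0.10 without antigen (SE 0.15; edgeR, adjusted p = 0.849) and -0.36 with antigen (SE 0.15; edgeR, adjusted p = 0.156, and 0.0293 with the block), the IgE DNP DEX samples lying below all IgE DNP samples. Stim2 made up 34.43% of the summed Stim RPKM after IgE and 48.89% after IgE DNP (exact permutation test, two-sided, p = 0.08571, adjusted p = 0.1714).

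Itpr2 (ENSMUSG00000030287, chr6:146108299-146502223, minus strand) encodes one of the 3 inositol trisphosphate receptors that release stored calcium. Its levels were 107.5, 114.4, 133.2 and 127.3 CPM after IgE, 123.3, 135.8, 132.3 and 142.0 CPM after IgE DNP, 148.1, 143.5, 197.6 and 148.7 CPM after IgE DEX and 104.8, 160.0, 168.1 and 149.2 CPM after IgE DNP DEX. The IgE DEX samples lay above all IgE and all IgE DNP samples, and the groups of the other 3 comparisons of a single agent overlapped. The log2 difference with DEX without antigen was 0.40 (SE 0.15; edgeR, adjusted p = 0.136, and 0.0292 with the block). The antigen differences were 0.15 and -0.13 and the DEX difference with antigen 0.12, each with an SE of 0.15 and none called. Per length Itpr2 had a mean of 8.149 RPKM after IgE, against 1.802 for Itpr3 and 1.254 for Itpr1, and it kept 72.64 to 77.28% of the summed receptor RPKM under the 4 treatments.

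Trpv2 (ENSMUSG00000018507, chr11:62574486-62600515, plus strand) encodes a calcium-permeable cation channel known to respond to heat and mechanical stimuli in mast cells. Its levels after IgE were 77.94 and 78.93 CPM in PEP+/+ and 94.24 and 85.32 CPM in PEP-/-. After IgE DNP they were 142.3, 147.2, 156.4 and 178.0 CPM. The IgE DEX samples had 265.1, 193.8, 239.4 and 189.6 CPM. The IgE DNP DEX samples had 325.2, 296.0, 308.3 and 318.4 CPM. The 4 treatments did not overlap, in the order IgE, IgE DNP, IgE DEX and IgE DNP DEX. Trpv2 was the 1 gene of the 9 tested that was called higher with each agent. DEX raised it by 1.40 (SE 0.13; edgeR, adjusted p = 5.92e-05) without antigen, which is 2.64-fold, and by 1.00 (SE 0.13; edgeR, adjusted p = 0.00065) with antigen, which is 2.00-fold, on the log2 scale. Antigen raised it by 0.89 (SE 0.13; edgeR, adjusted p = 0.000826) without DEX and by 0.49 (SE 0.13; edgeR, adjusted p = 0.0323) with DEX. The last call was lost without any 1 of 9 samples, among them all 4 IgE samples, which do not enter this comparison directly, with edgeR adjusted p from 0.0503 to 0.136, the highest without PEP+/+ IgE DEX replicate 2.

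Trpm4 (ENSMUSG00000038260, chr7:45302632-45333780, minus strand) encodes the calcium-activated channel for monovalent cations. Its levels after IgE were 14.32, 24.20, 16.12 and 24.69 CPM, after IgE DNP 19.39, 42.08, 18.21 and 49.03 CPM, after IgE DEX 12.90, 16.07, 9.749 and 16.58 CPM, and after IgE DNP DEX 13.02, 33.54, 13.61 and 43.11 CPM. The lettered sample was the higher in 8 of 8 conditions, by a mean of 1.01 on the log2 scale, and the groups overlapped in each of the 4 comparisons of a single agent. Antigen differences were 0.70 (SE 0.46; edgeR, adjusted p = 0.397) without and 0.90 (SE 0.47; edgeR, adjusted p = 0.253) with DEX. Both passed with the block, at 0.62 and 0.77 (edgeR, adjusted p = 0.0152 and 0.00542). Within the numbered samples alone the mean antigen difference was 0.30 without and 0.24 with DEX, and within the lettered samples 0.89 and 1.22. DEX differences were -0.53 (SE 0.47) and -0.32 (SE 0.46), not called.

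Kcnn4 (ENSMUSG00000054342, chr7:24370263-24386690, plus strand) encodes KCa3.1, a potassium channel opened by calcium. Its levels after IgE were 102.5 and 172.5 CPM in PEP+/+ and 102.8 and 177.3 CPM in PEP-/-, and after IgE DNP 299.0, 611.2, 363.6 and 647.7 CPM. After IgE DEX they were 54.08, 85.96, 55.07 and 74.14 CPM, and after IgE DNP DEX 321.2, 428.9, 237.0 and 488.8 CPM. All 8 samples with antigen lay above all 8 without, and the IgE DEX samples were the lowest. Antigen raised Kcnn4 by 1.79 (SE 0.35; edgeR, adjusted p = 0.00445), or 3.46-fold, without DEX and by 2.46 (SE 0.36; edgeR, adjusted p = 0.00107), or 5.48-fold, with DEX. Per length its mean went from 27.14 RPKM after IgE to 93.92 after IgE DNP, and from 13.16 after IgE DEX to 72.13 after IgE DNP DEX.
The log2 difference with DEX was -1.05 (SE 0.34) without antigen, with an adjusted p of 0.0907 in edgeR, of 1.13e-05 with the block and of 0.0251 in DESeq2. With antigen it was -0.38 (SE 0.34; edgeR, adjusted p = 0.58, and 0.0259 with the block). Lettered samples exceeded numbered ones by a mean of 0.75 on the log2 scale, and within each set the mean antigen difference was 1.68 and 1.85 without DEX and 2.33 and 2.52 with DEX, numbered samples first.

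Kcnj2 (ENSMUSG00000041695, chr11:111066164-111076821, plus strand) encodes Kir2.1, an inward rectifier that helps to set the resting potential. As the gene chosen by its fall with antigen, it is described without a test. After IgE it had 4.187 and 8.934 CPM in PEP+/+ and 4.644 and 9.566 CPM in PEP-/- samples, from 51 to 186 reads. After IgE DNP it had 0.7566, 0, 0.2461 and 0.2201 CPM, from 8, 0, 3 and 4 reads. After IgE DEX it had 6.515, 11.65, 7.312 and 11.49 CPM, and after IgE DNP DEX 1.042, 0.9370, 0.8602 and 0.9516 CPM, the latter from 8 to 15 reads. The samples with and without antigen did not overlap, and the IgE DNP DEX samples lay above all IgE DNP samples. The fitted log2 antigen difference was -4.45 without and -3.28 with DEX, values that chose the gene and that rest on few reads. Without PEP+/+ IgE DNP replicate 1, which held all 8 reads of its group, the first value was -7.21. Without replicate 2 of that group, which held 0 reads, it was -4.01. The DEX difference was 0.43 (SE 0.45) without antigen, with overlapping samples, and 1.60 (SE 0.64) with antigen. The latter became 4.37 without PEP+/+ IgE DNP replicate 1 and 1.17 without replicate 2. Per length its mean was 1.255 RPKM after IgE, against 27.14 for Kcnn4.

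**Figure D3:**
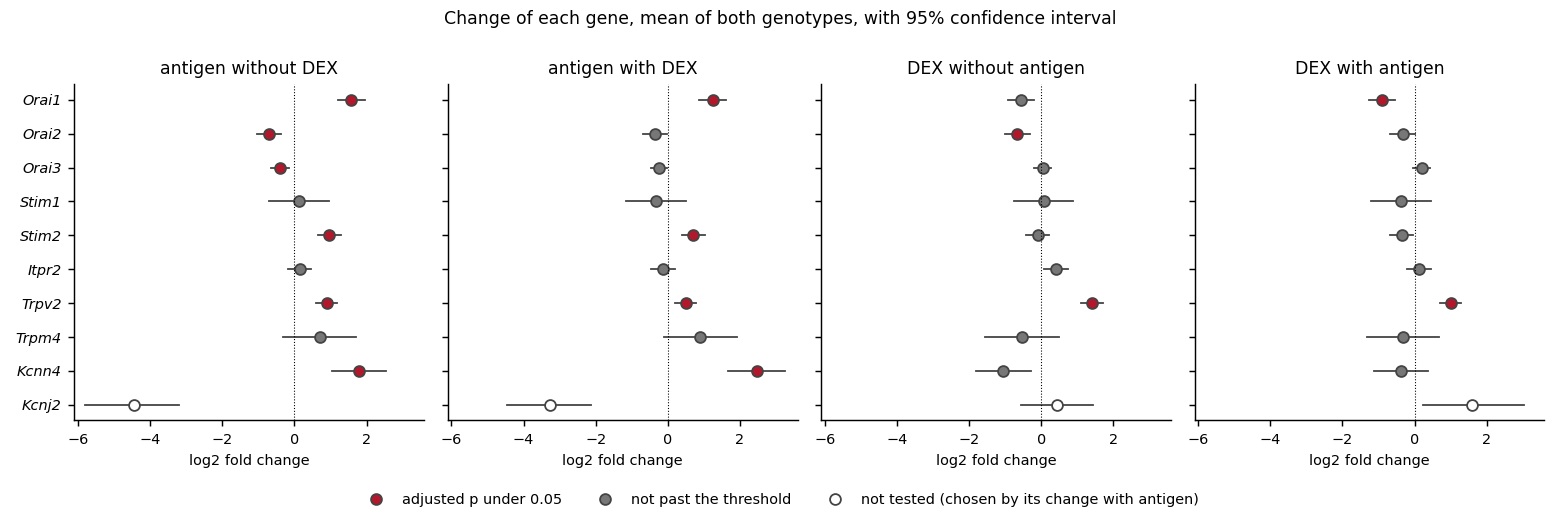
Log2 differences of the 10 genes are plotted for antigen and for DEX, each without and with the other agent, with points averaged over the genotypes and bars for the 95% interval (n = 4 against 4 samples), red where the adjusted p is under 0.05, grey where it is not and open where no test was made. The bars of Kcnj2 do not allow for its choice by the fall with antigen and are no measure of support. Kcnj2 lies at -4.45 and -3.28 for antigen, Kcnn4 at 1.79 and 2.46 and Orai1 at 1.58 and 1.24, while for DEX Trpv2 stands highest among the tested genes at 1.40 and 1.00.

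Whether the antigen difference itself differed with DEX was tested as an interaction, which called 0 of 9 genes against 0.331% of all genes, and 0 against 1.57% with the block. The estimates ran from -0.45 for Stim1 to 0.67 for Kcnn4, all with an edgeR adjusted p of 0.9999. The 95% interval for Kcnn4 was -0.38 to 1.72, and with the block its value was 0.66 (edgeR, adjusted p = 0.0585). In the fit without the block, 485 of all 13305 genes had an edgeR p-value under 0.05 before adjustment. That is below a 0.05 share, the share due if no gene differed. The 0 calls thus do not show that the antigen difference was the same with and without DEX. The untested Kcnj2 value was 1.17. It became 3.94 without PEP+/+ IgE DNP replicate 1 and 0.74 without replicate 2 of that group.

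Between PEP-/- and PEP+/+ samples, 0 of the 10 genes were called, against 1.59% of all genes, and 0 of 10 had samples that did not overlap, against 0.413% of all genes. Log2 differences of PEP-/- minus PEP+/+, averaged over the treatments, ran from -0.18 for Kcnj2 to 0.40 for Stim1. With the block 1 of 10 was called, against 17.4% of all genes, and this was Stim1 (0.40, SE 0.08, edgeR adjusted p = 0.00484). Without the block the Stim1 difference was also 0.40, with an SE of 0.27 and an edgeR adjusted p of 0.59. The PEP-/- sample had the higher Stim1 level than its same-set PEP+/+ counterpart in 7 of 8 pairs. In the fit without the block, the 95% interval ran from -0.37 to 0.15 for Orai1 and from -0.02 to 0.43 for Itpr2. It ran from -0.12 to 0.28 for Trpv2, from -0.52 to 0.53 for Kcnn4 and from -1.06 to 0.69 for Kcnj2. The spread behind these intervals includes the difference between the sets. For Kcnn4 the SE was 0.24 without and 0.08 with the block, and for Itpr2 0.10 and 0.09. The 4 tests of whether antigen or DEX acted differently in the genotypes each called 0 of the genes and 0% of all 13305. DESeq2 also called 0, and so did edgeR with the set as a block. Without it, edgeR p-values under 0.05 before adjustment numbered 30, 53, 40 and 95. Each number is far below a 0.05 share of the 13305 genes, the share due if no gene differed. The fit without the block was thus too cautious here, and the 0 calls do not show that the genotypes responded alike. For Kcnn4 the antigen values were 1.73 in PEP+/+ and 1.85 in PEP-/- cells without DEX, and 2.42 and 2.49 with DEX. With DEX present, antigen gave 1.37 and 1.12 for Orai1 and 0.80 and 0.62 for Stim2, and the DEX difference of Orai1 after antigen was -0.70 and -1.09. For Kcnj2 the untested antigen values were -4.01 and -4.89 without DEX. For Trpv2 the DEX values were 1.55 and 1.26 without antigen.

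The other genes of calcium handling and potassium conductance give the surroundings of these values, from lists of 135 genes of which 58 had enough reads to be tested. Antigen without DEX raised 6 and lowered 2 of the 58, and antigen with DEX raised 3 and lowered 4. The 6 include Kcnj12, which had enough reads to be tested only through the IgE DNP samples. DEX raised 4 and lowered 4 in each of its comparisons. Their median log2 differences were 0.05, -0.13, -0.08 and -0.27. With the block the calls were 9 up and 5 down, 9 and 11, 8 and 11, and 9 and 19. The shares of all genes called in these comparisons were 16.7%, 12.6%, 9.37% and 10.7%, and with the block 37.9%, 37.6%, 26.7% and 33.3%.

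Among them, Itpkb, a kinase that phosphorylates inositol trisphosphate, rose with antigen by 1.95 (SE 0.23; edgeR, adjusted p = 0.00019) without and 1.72 (SE 0.23; edgeR, adjusted p = 0.000678) with DEX on the log2 scale. Its mean level went from 65.17 CPM after IgE to 250.4 CPM after IgE DNP. Plcg1, which makes inositol trisphosphate, fell with antigen by 0.49 and 0.73 on the log2 scale (edgeR, adjusted p = 0.0101 and 0.00133). The calcium pumps Atp2a2 of the endoplasmic reticulum and Atp2b1 of the plasma membrane rose with antigen without DEX, by 1.09 and 0.94 (edgeR, adjusted p = 0.0472 and 0.0171). Kcnk5, a two-pore potassium channel, rose by 0.78 there, and Kcne3, an auxiliary potassium channel subunit, changed by -0.81 without DEX and by 0.56 with it. Kcne3 was the 1 listed gene called for the interaction, at 1.36 (SE 0.20; edgeR, adjusted p = 0.0206). Kcnj12, an inward rectifier related to Kcnj2, had 0 reads in all 4 IgE samples and 4 to 17 in the IgE DNP samples, and Kcnmb1 had 1 to 10 and 4 to 28 reads. Both were called up, at levels too low for a firm size. Kcnj12 had 0 to 1 reads after IgE DEX and 1 to 4 after IgE DNP DEX. It thus had enough reads to be tested only through the IgE DNP samples, and its call is no more than a description. With DEX present, antigen also raised Mcoln2, an endolysosomal channel, by 1.61, from 4 to 14 reads after IgE DEX and 12 to 25 after IgE DNP DEX. That size is not firm either. It lowered Tmem110, an activator of Stim proteins, by 0.86, Pkd1 by 1.05 and Mrvi1, a partner of the inositol trisphosphate receptor, by 1.23.

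DEX raised Kcnq1, a voltage-gated potassium channel, from a mean of 0.8361 CPM after IgE to 4.869 CPM after IgE DEX, a log2 difference of 2.47 (SE 0.55; edgeR, adjusted p = 0.014), and of 2.66 with antigen. It also raised Cracr2a, a regulator of the Orai and Stim complex, by 1.83 and 1.44, Cacnb2, a calcium channel beta subunit, by 1.13 and 1.05, and Plcg2, which makes inositol trisphosphate, by 0.99 and 0.75 without and with antigen. DEX lowered Mrvi1 in both comparisons, with log2 differences of -1.94 and -2.50, and Trpc6, a receptor-operated cation channel, with -1.05 and -1.21. Without antigen it lowered Kcne3 (-0.99) and Mcoln2 (-1.51, from 16 to 24 reads after IgE and 4 to 14 after IgE DEX). With antigen it lowered Kcnk5 (-1.10) and Cacna1h, a T-type calcium channel (-1.43). Between the genotypes 1 of the 58 was called, against 1.59% of all genes, and this was Cacnb4, at -0.93 in PEP-/- relative to PEP+/+ (SE 0.17; edgeR, adjusted p = 0.024).

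Genes whose levels over the 16 samples were most like those of the members are given as a description, since all samples share the same treatments and sets. Orai1 was most like Blcap, Tnfsf9 and Ccl1, with Pearson's r of 0.975, 0.969 and 0.969 between log2 CPM values. Orai2 was most like Nfatc2 (0.946), and Orai3 most like Slc37a4 (0.959). Stim2 was most like Nfatc1 (0.979) and Kcnn4 most like Tpsab1 (0.985), Lxn (0.985) and Relb (0.983). Trpv2 was most like Glul, Il2ra and Lyn (0.975, 0.970 and 0.963), and Kcnj2 most like Zbtb5 (0.966).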

How the data were processed

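RNA from BMMCs of 2 genotypes under 4 treatments was sequenced with a stranded mRNA kit. The authors aligned reads with TopHat2 v2.0.11 to GRCm38 (Ensembl 75) and counted them with HTSeq v0.5.3, and deposited raw counts per gene for each sample. Whether strand was used in the counting is not given in the sources used here, and reads aligned to several places, 21.45 to 37.76% of a sample, are in no gene. Of 39179 identifiers, 96.21% were found in GENCODE M21, which gave positions and exon lengths. The 5 rows that name no gene were left out.

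The quasi-likelihood test of edgeR 4.0.16 (R 4.3.3) was run on TMM-scaled counts of all 16 samples with 1 mean per condition and 8 residual degrees of freedom. The filter (filterByExpr, minimum count 10) kept 13305 genes and all 10 members. P-values were adjusted by Benjamini-Hochberg over these genes and called under 0.05. The common biological coefficient of variation was 0.3124. Alternatives were DESeq2 1.42.0, its size factors in edgeR, no filter, the replicate set as a block and each sample left out. The labels number 1 sample of a condition and letter the other. Deviations of same-set samples from their condition means correlated by 0.453 to 0.799 in 28 of 28 pairs of conditions, so the sets pair the samples. The main fit leaves this pairing out, so a call missing from it does not show that a gene was unchanged.

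The members and lists were chosen with earlier results of these data known. The other calcium and potassium genes named are the up to 4 called with the largest differences in each direction and comparison, with Atp2b1 and Kcnk5 added after their values were seen, and the like genes are the up to 3 with the highest correlation. Kcnj2 was left out of the DEX tests too, since they share the samples that chose it, although the design had counted it there. Intervals are from the fit without the block and cover sample spread, and the reads carry no molecular identifiers.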

Additional observations from a re-analysis of the deposited data

How the results depend on the processing

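With DESeq2's size factors every tested log2 difference of the members kept its direction and its side of the threshold, and so did the untested Kcnj2 values their direction. The replicate block called 5042, 5007, 3548 and 4429 of all genes for antigen without and with DEX and DEX without and with antigen, 209 for the interaction and 2310 for genotype, and of the members 8 for antigen with DEX, 5 and 5 for DEX without and with antigen and 1 for genotype. It made Kcnn4 -0.00 between genotypes and, beyond the calls given above with their blocked p-values, changed no other. DESeq2 called 97 of all genes for the interaction, 668 for genotype and 4 members for DEX without antigen. Without the filter the counts were 107 and 472, Orai3 lost its antigen call without DEX (edgeR, adjusted p = 0.318) and Trpv2 with DEX (0.131), and Trpm4 gained both antigen calls (0.0323 and 0.00259) and Kcnn4 that for DEX without antigen (1.78e-05).

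Leaving out each sample in turn, where the lone sample left is assumed to vary like the others, gave 1390 to 2251, 927 to 1604, 845 to 1269 and 852 to 1317 genes for the 4 treatment comparisons, 12 to 27 for the interaction and 57 to 203 for genotype. Members called numbered 2 to 4 for antigen with DEX, 2 without PEP+/+ IgE DEX replicate 2, and 1 to 3 for DEX without antigen. Uncalled log2 differences that changed sign ranged, for genotype, from -0.15 to 0.15 (Kcnn4), -0.18 to 0.3 (Trpm4), -0.03 to 0.12 (Orai2) and -0.41 to 1.19 (Kcnj2). For Stim1 they ranged from -0.26 to 0.43 (antigen without DEX), -0.15 to 0.38 (DEX without antigen) and -0.71 to 0 (DEX with antigen), for Trpm4 from -0.83 to 0.14 (DEX with antigen) and -0.3 to 0.68 (interaction), for Itpr2 from -0.28 to 0.03 (antigen with DEX) and -0.03 to 0.28 (DEX with antigen), and for DEX without antigen from -0.2 to 0 (Stim2) and -0.01 to 0.1 (Orai3). The causes were not tested. Depth limits Kcnj2 most, with 0 to 15 reads in samples with antigen.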
